A study of Caenorhabditis elegans with 6 samples.

Results

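The glutathione S-transferase genes of Caenorhabditis elegans were followed in young adults of a flcn-1 mutant strain and of the wild type. A probe was counted as a member when the sequence name on the array matched a gene with a gst, gsto or gstk symbol. The gene table lists 49 such genes, and 68 probes matched 48 of them, among 20437 named genes on the array: 43 gst genes, 3 gsto genes and 2 gstk genes. The remaining gene, gst-4, had no matched probe and was not analysed here. The match by name used no measured value, but members and lists were chosen with earlier results of these data known.

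Glutathione S-transferases join the tripeptide glutathione to electrophilic compounds, such as drugs, plant toxins and the products of lipid peroxidation, which makes them more soluble and marks them for export from the cell. Worms carry a large set of these genes, many of them expressed in the intestine. Several are switched on during oxidative stress by SKN-1, the worm counterpart of the mammalian Nrf factors. The omega class (gsto genes) uses a cysteine in its active site and reduces oxidised substrates, and the kappa class (gstk genes) has a different fold and has been placed in peroxisomes and mitochondria.

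RB1035 carries a mutant allele of flcn-1, the counterpart of the human tumour suppressor folliculin, and had been backcrossed 8 times to WTN2. WTN2 is the wild type. Both strains were sampled as whole young adults before reproduction, grown on agar with OP50 bacteria, with 3 biological replicates and 1 one-colour Agilent array per replicate. Slide 1 held RB1035 replicate 1 and WTN2 replicate 1, and slide 2 held replicates 2 and 3 of both strains. Each value below is a log2 signal after subtraction of that array's 75th percentile, and each difference is RB1035 minus WTN2. Levels of different probes are not set against each other, because probes differ in brightness for the same amount of RNA.

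On each array, the flag for signal well above background was set for 68.1% to 73.1% of all probes. Copies of the same probe varied by a median of 22.4% and 20.9% on RB1035 replicates 2 and 3, against 8.19% on RB1035 replicate 1 and 8.46% to 10.9% on the WTN2 arrays. Intestinal markers (5 of 5 genes detected on all arrays) averaged 2.75 to 3.19 in RB1035 and 2.84 to 3.16 in WTN2. Adult markers averaged 5.57 to 5.80 in RB1035, inside the range of the WTN2 arrays. Of 4 early embryo markers, 1 was detected on all 6 arrays. Body wall muscle markers spread widely, from 1.28 to 3.55 in RB1035 and from 0.27 to 2.30 in WTN2. Pharynx markers averaged -0.53 to 0.98 in RB1035 and -1.37 to 0.13 in WTN2. Oocyte markers averaged 3.42 to 4.03 in RB1035 and 2.77 to 3.56 in WTN2. For muscle, pharynx and oocyte markers RB1035 replicates 2 and 3 lay above every WTN2 array, and RB1035 replicate 1 lay among the WTN2 arrays. The ranges of the strains overlapped for neuron, hypodermis, germline and sperm markers. No marker gene of these lists passed the test. In whole animals, fewer cells of a type and less RNA per cell cannot be told apart. The mutated gene flcn-1 had levels of -0.11, 0.37 and 0.49 on the RB1035 arrays and 0.73, 0.16 and 0.20 on the WTN2 arrays. Its difference was -0.11 (limma adjusted p = 0.901), -0.84 on slide 1 and 0.25 on slide 2. The labels do not place the allele's lesion relative to the 4 probes of flcn-1, so its level does not check the strain labels.

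Nearly the whole family was expressed in both strains. Of 48 genes with a probe, 44 had a probe well above background on all 6 arrays, a share of 91.7%, against 69.8% of all named genes. The share of all named genes let different probes of a gene cover different arrays, a looser rule that would add no family gene. The number of member probes detected was 61, 57 and 54 on RB1035 replicates 1, 2 and 3 and 55, 59 and 61 on WTN2 replicates 1, 2 and 3. A further gene, gst-25, was detected on 1 RB1035 array and on 2 WTN2 arrays. The other 3 genes did not reach the 3 detected arrays that the test required. For gst-37 no array showed its probe above background. The probe of gst-17 was detected only on WTN2 replicate 2, and 1 of 5 probes of gst-18 only on WTN2 replicate 3. These 4 genes were named after their values were seen. Both gst-17 and gst-18 lie at the end of a run of transferase genes on chromosome II whose 7 other members were all detected on every array.

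No transferase gene passed the test between the strains. Among 45 members tested, 0 had an adjusted p under 0.05 by limma, against 20 of 19821 features (0.101%), of which 4 rose (0.0202%) and 16 fell (0.0807%) in RB1035. Even without adjustment none had a p under 0.05, a level reached by 7.23% of all features. The smallest unadjusted p of the family was 0.0594, for gst-38, and adjusted p values ran from 0.65 to 0.996. The estimates were spread around zero: 27 genes had a difference below 0 and 18 above 0, with a median of -0.12 against 0.00 over all features tested. Differences ranged from -1.08 for gst-8 to 0.92 for gsto-3. The median size, whatever the sign, was 0.31, against 0.33 over all features. For 7 genes (15.6%) it was at least 1.5-fold, a size seen in 23.4% of all features. When only probes detected on all 6 arrays were kept, 1 of 17421 features and 0 of 44 members passed the adjusted threshold.

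A missed threshold does not show that the strains were alike, and the intervals give the range of differences that these arrays allow. For 18 of 45 genes the 95% confidence interval lay within 2-fold in either direction, and for the other 27 it reached past 2-fold on at least 1 side. Precision is limited by having 3 arrays a strain. The intervals were narrowest for genes that were steady in both strains, such as gst-15 (difference -0.02, interval from -0.59 to 0.55) and gsto-2 (-0.08, from -0.65 to 0.49), both picked out after their values were seen. That of gst-8 was the widest of the 45, from -2.66 to 0.49.

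**Figure D1:**
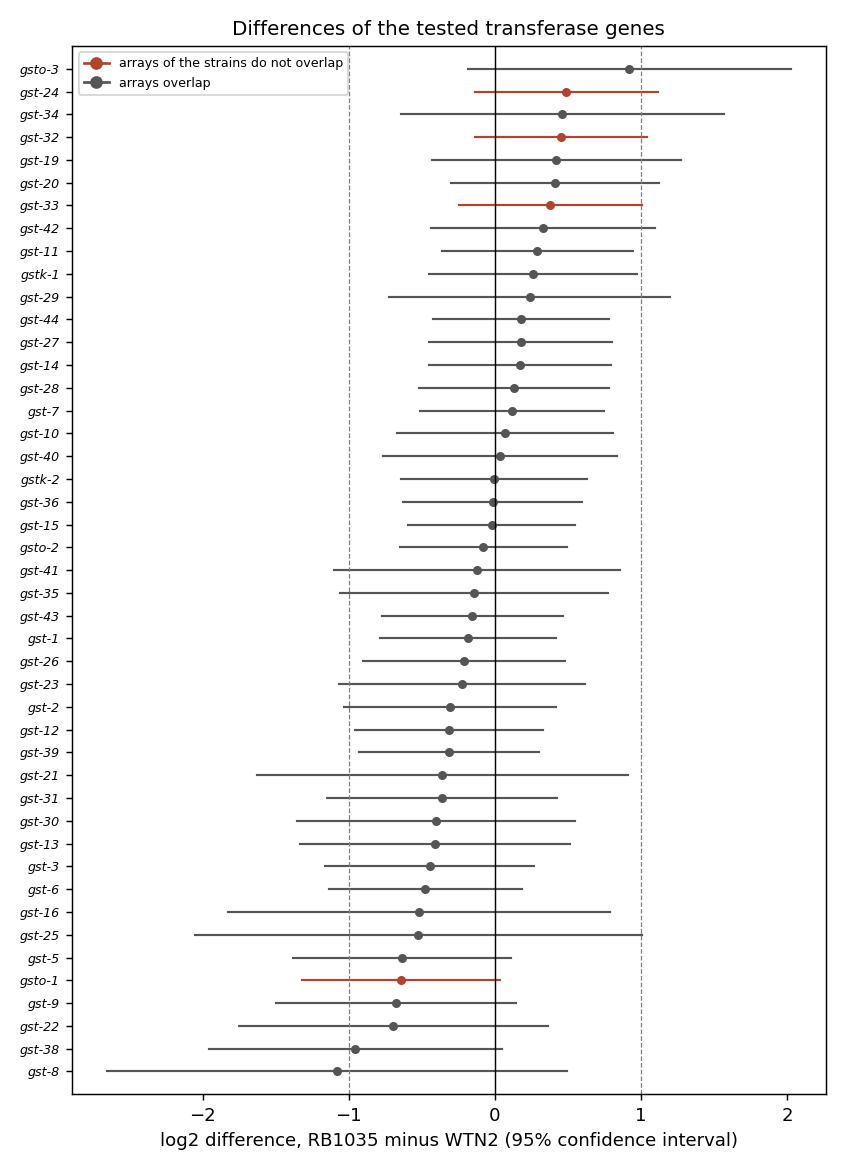
Log2 difference (RB1035 minus WTN2, x axis) of each of the 45 tested transferase genes (rows), with 95% confidence intervals from limma as lines and dashed lines at 2-fold. All 45 intervals cross 0, and the 4 genes in red (gst-24, gst-32, gst-33 and gsto-1) are those whose arrays do not overlap between strains.

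The arrays of the strains did not overlap for 4 members. Higher in all RB1035 arrays were 3 of 45, where 5.22% of all features were, and lower in all RB1035 arrays was 1 of 45, where 6.74% of all features were. The signal of gst-24 was 0.91, 0.98 and 1.09 in RB1035 and 0.77, 0.17 and 0.57 in WTN2, a difference of 0.49 ± 0.27 (SE, n = 3 each; limma adjusted p = 0.652). The signal of gst-32 was -3.56, -3.82 and -3.97 in RB1035 and -4.30, -4.21 and -4.20 in WTN2, a difference of 0.45 ± 0.26 (SE, n = 3 each; limma adjusted p = 0.652). For gst-24 the nearest arrays of the strains lay close together and the difference was 0.32 without WTN2 replicate 2, and for gst-32 the 3 WTN2 arrays were nearly equal. The third gene, gst-33, falls outside the rule for named genes and was named after its values were seen; it had -3.49, -3.03 and -3.29 in RB1035 and -3.90, -3.53 and -3.51 in WTN2. The gene lower on every RB1035 array was gsto-1, described next.

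The omega class held estimates in both directions. The gene gsto-1 encodes an intestinal omega transferase linked to resistance against oxidative stress. Its signal was -0.20, 0.05 and -0.57 in RB1035 and 0.07, 0.57 and 0.57 in WTN2, a difference of -0.64 ± 0.30 (SE, n = 3 each; limma adjusted p = 0.65). The highest RB1035 array and the lowest WTN2 array of gsto-1 were almost level. The difference of gsto-1 was -0.27 on slide 1 and -0.83 on slide 2. A second omega gene, gsto-3, had -5.13, -3.42 and -3.44 in RB1035 and -5.34, -4.64 and -4.77 in WTN2 by its brightest probe. RB1035 replicates 2 and 3 stood above all WTN2 arrays for gsto-3, while RB1035 replicate 1 lay among them. The difference of gsto-3 was 0.92 ± 0.48 (SE, n = 3 each; limma adjusted p = 0.65), with 0.21 on slide 1 and 1.28 on slide 2. It was 1.49 without RB1035 replicate 1 and 0.63 without RB1035 replicate 2. Outside the rule for named genes, and named after its values were seen, gsto-2 had a mean of 3.04 ± 0.10 in RB1035 and 3.12 ± 0.10 in WTN2 (SD, n = 3 each).

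The kappa gene gstk-1 had 1.55, 1.66 and 2.13 in RB1035 and 1.09, 1.67 and 1.80 in WTN2. The strains overlapped for gstk-1, and the difference was 0.26 ± 0.31 (SE, n = 3 each; limma adjusted p = 0.769). Without WTN2 replicate 1 it was 0.05, and without RB1035 replicate 3 it was 0.09. It was 0.09 with normexp and 0.11 in the deposited series table. For gstk-2, likewise named afterwards, the means were -0.27 ± 0.30 in RB1035 and -0.26 ± 0.17 in WTN2 (SD, n = 3 each), close to level. The gene gst-42 encodes a counterpart of maleylacetoacetate isomerase, an enzyme of tyrosine breakdown. It had 0.97, 0.99 and 1.95 in RB1035 and 0.88, 0.90 and 1.15 in WTN2. RB1035 replicate 3 alone stood far above the other 5 arrays for gst-42: without it the difference was 0.01, against 0.33 ± 0.34 with all arrays (SE, n = 3 each; limma adjusted p = 0.74).

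The next 3 genes encode transferases with known roles in stress. The product of gst-1 belongs to the pi class and protects dopamine neurons of the worm from manganese. Its signal was 4.16, 4.28 and 3.96 in RB1035 and 4.51, 4.12 and 4.33 in WTN2, a difference of -0.19 ± 0.26 (SE, n = 3 each; limma adjusted p = 0.802). The products of gst-10 and gst-5 conjugate hydroxynonenal, a toxic product of lipid peroxidation. For gst-10 the signal was 2.62, 2.70 and 2.39 in RB1035 and 2.62, 1.94 and 2.93 in WTN2, so both WTN2 extremes lay outside the RB1035 range. The difference of gst-10 was 0.07 ± 0.32 (SE, n = 3 each; limma adjusted p = 0.942), and its sign was not stable: it was -0.05 with normexp background correction and -0.01 in the deposited series table.

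The signal of gst-5 was 2.04, 1.89 and 2.01 in RB1035 and 2.03, 2.71 and 3.11 in WTN2. The RB1035 arrays of gst-5 were nearly equal, and WTN2 replicate 1 lay among them, while WTN2 replicates 2 and 3 were higher. Its difference was -0.64 ± 0.33 (SE, n = 3 each; limma adjusted p = 0.65), with 0.01 on slide 1 and -0.96 on slide 2. Without WTN2 replicate 3 it was -0.39, and without WTN2 replicate 1 it was -0.93.

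**Figure D2:**
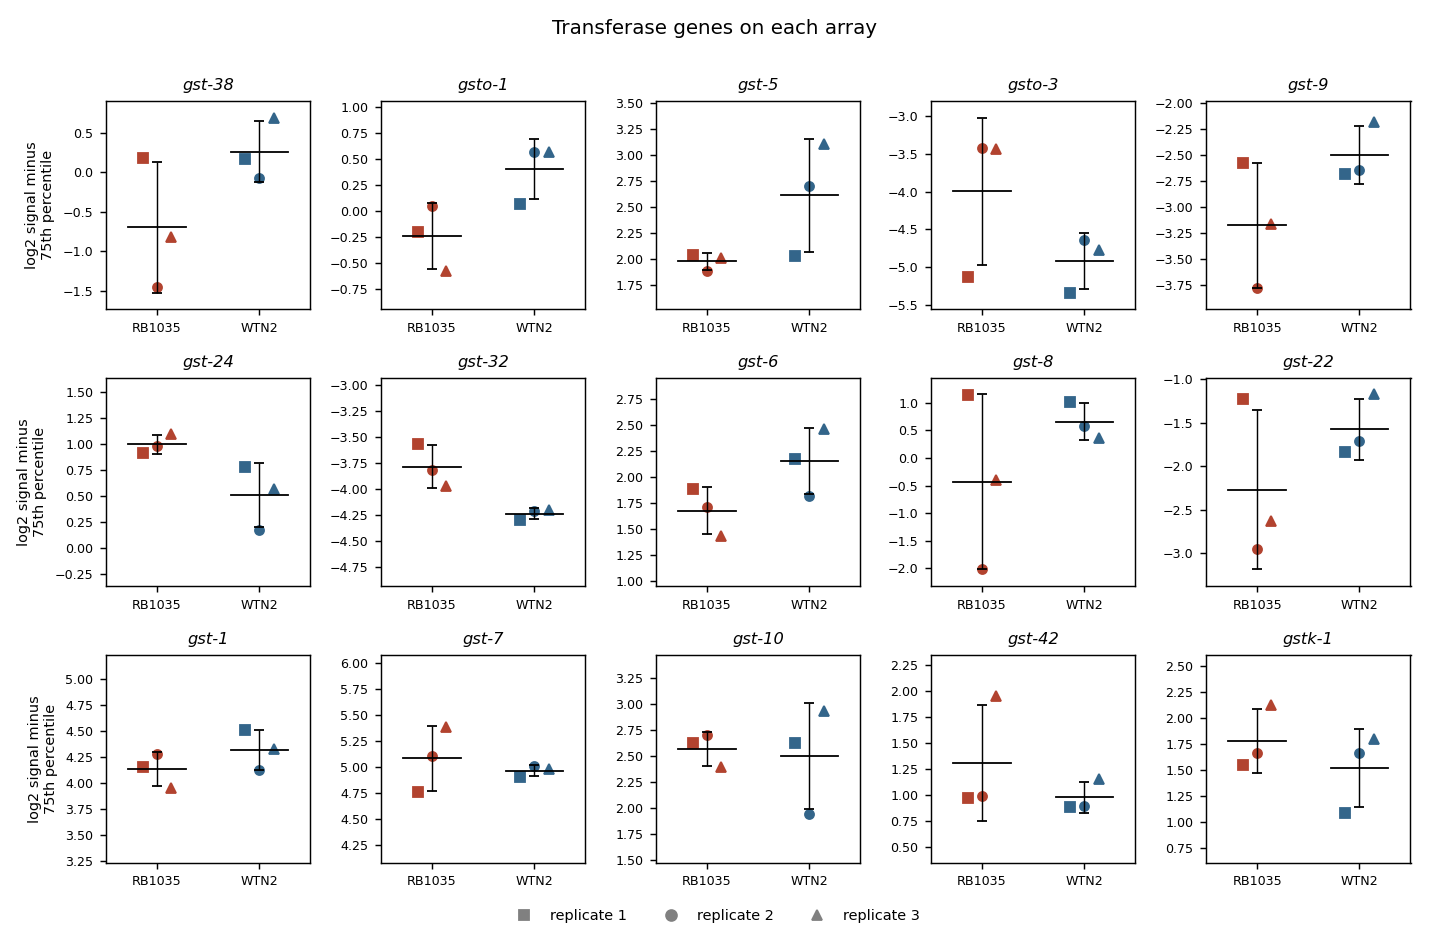
Log2 signal minus the array's 75th percentile (y axis, scaled per gene and spanning at least 2 units) of 15 transferase genes on each RB1035 array (red, left) and each WTN2 array (blue, right). Symbols mark replicate numbers, horizontal bars the means and whiskers ± 1 SD (n = 3 each). For gst-38, gst-9, gst-8 and gst-22, RB1035 replicate 1 (squares) lies with or above most WTN2 arrays and RB1035 replicates 2 and 3 lie below all of them.

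Many worm transferase genes lie in runs, and 4 runs of members separated by at most 3 other protein-coding genes were found in the gene order of assembly WBcel235. The run from gst-6 to gst-9 on chromosome II comprised 4 genes, of which 3 had a difference below 0, with a median of -0.58 (-0.02 on slide 1 and -0.82 on slide 2). Within it gst-7 had 4.76, 5.10 and 5.39 in RB1035 and 4.90, 5.01 and 4.98 in WTN2, a difference of 0.12 ± 0.27 (SE, n = 3 each; limma adjusted p = 0.885). The WTN2 arrays of gst-7 fell inside the RB1035 range. Its neighbour gst-8 had 1.14, -2.02 and -0.40 in RB1035 and 1.02, 0.58 and 0.37 in WTN2, a difference of -1.08 ± 0.69 (SE, n = 3 each; limma adjusted p = 0.66). RB1035 replicate 1 was thus the highest of the 6 arrays for gst-8 and RB1035 replicate 2 by far the lowest. Without RB1035 replicate 2 the difference of gst-8 was -0.29, and without RB1035 replicate 1 it was -1.86.

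The other genes of that run were less spread. The signal of gst-6 was 1.88, 1.72 and 1.44 in RB1035 and 2.18, 1.82 and 2.46 in WTN2, a difference of -0.48 ± 0.29 (SE, n = 3 each; limma adjusted p = 0.653). For gst-9 it was -2.58, -3.78 and -3.17 in RB1035 and -2.68, -2.65 and -2.18 in WTN2, a difference of -0.68 ± 0.36 (SE, n = 3 each; limma adjusted p = 0.65). The arrays of gst-6 overlapped by a small margin, and those of gst-9 through RB1035 replicate 1. Within slides gst-6 gave -0.30 and -0.57, and gst-9 gave 0.10 and -1.06. Without RB1035 replicate 2 the difference of gst-9 was -0.37, and without RB1035 replicate 1 it was -0.97.

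The run from gst-20 to gst-18, with 9 genes of which 7 were tested, had 4 estimates above 0 and 3 below, from -0.52 to 0.49, with a median of 0.17 (0.16 on slide 1 and -0.03 on slide 2). The run from gst-26 to gst-35, with 9 tested genes, had 5 above and 4 below, from -0.36 to 0.46, with a median of 0.13 (0.25 on slide 1 and -0.10 on slide 2). Neighbours in both runs therefore pointed in both directions. The run on chromosome IV held gst-3 and gst-2, at -0.45 and -0.31 (named for this run after their values were seen), and gst-4. Near-identical neighbours could share signal on the array, and whether each probe reports its gene alone was not tested.

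Away from these runs, 2 genes of chromosome V had large estimates. The signal of gst-38 was 0.18, -1.46 and -0.82 in RB1035 and 0.16, -0.07 and 0.69 in WTN2, a difference of -0.96 ± 0.44 (SE, n = 3 each; limma adjusted p = 0.65). For gst-22 it was -1.22, -2.95 and -2.63 in RB1035 and -1.84, -1.71 and -1.17 in WTN2, a difference of -0.69 ± 0.46 (SE, n = 3 each; limma adjusted p = 0.666). For both genes RB1035 replicates 2 and 3 were below all WTN2 arrays and RB1035 replicate 1 lay among or near the highest. Slide 1 gave 0.02 for gst-38 and slide 2 gave -1.45. Leaving out RB1035 replicate 2 gave -0.58, and leaving out RB1035 replicate 1 gave -1.40. For gst-22 slide 1 gave 0.61 and slide 2 gave -1.35. Its difference was -0.35 without RB1035 replicate 2 and -1.22 without RB1035 replicate 1.

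The slides thus gave different pictures of the family. On slide 1, 14 of 45 genes had a difference below 0 and the median was 0.12, against -0.03 over all features. On slide 2, 31 of 45 were below 0 and the median was -0.19, against 0.00 over all features. Only 22 genes had the same sign on both slides, 11 above and 11 below 0. Of the others, 20 were above 0 on slide 1 and below 0 on slide 2 (44.4% of members, against 23.6% of all features), and 3 the reverse. The median deviation of members from their mean over all arrays was largest on WTN2 replicate 3, at 0.20 (0.03 over all features). On RB1035 replicates 2 and 3 this deviation was -0.08 and -0.10. The family median was -0.04 without WTN2 replicate 3, against -0.12 with all arrays. It was -0.003 without RB1035 replicate 2 and -0.03 without RB1035 replicate 3. Both RB1035 arrays of slide 2 are those on which copies of a probe varied most, so on that slide strain and this variation cannot be told apart. The array weights that limma estimates from the spread between arrays of a strain ran otherwise: RB1035 replicates 1, 2 and 3 had 0.739, 0.904 and 1.90, and WTN2 replicates 1, 2 and 3 had 0.665, 1.44 and 0.824. Without both of them, an alternative chosen after the data were seen that leaves 1 RB1035 array and assumes it varies like the WTN2 arrays, 0 members changed by limma (0 at an unadjusted p under 0.05) and the median was 0.10.

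**Figure D3:**
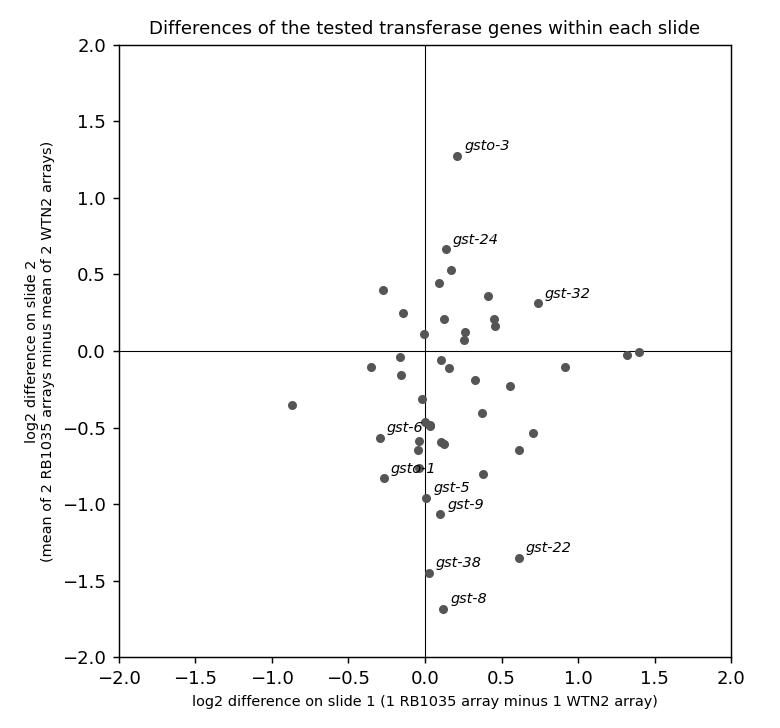
Log2 difference (RB1035 minus WTN2) of the 45 tested transferase genes on slide 1 (x axis, 1 array per strain) and on slide 2 (y axis, means of 2 arrays per strain), each point a gene. The lower right of the plot holds 20 genes, above 0 on slide 1 and below 0 on slide 2, among them gst-8, gst-38 and gst-22.

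Variation between replicates of a strain had a median SD of 0.32 in RB1035 and 0.28 in WTN2 over the members, against 0.35 in RB1035 and 0.38 in WTN2 over all features. The SD was larger in RB1035 for 30 of 45 members (66.7%), where it was so for 47.2% of all features. RB1035 replicate 2 was the lowest of the 6 arrays for 15 members (33.3%, against 24.6% of all features). WTN2 replicate 3 was the highest for 17 of 45 members, but the share over all features was not computed for it. These shares describe 6 arrays and were not tested.

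Several probes were available for 7 genes. The 3 probes of gst-10 differed by -0.24 to 0.11, the 4 of gst-23 by -0.22 to 0.05 and the 6 of gsto-2, which cover several of its transcripts, by -0.08 to 0.30. For these genes no probe showed a large difference. The gsto-2 probe at 0.30 was dim and detected on 4 of 6 arrays, and other dim gsto-2 probes were detected on 4 and 2 arrays. For gst-11, 3 probes detected on all 6 arrays differed by -0.04 to 0.29, and a dim one by -1.28. For gst-34 the 3 probes ranged from -0.77 to 0.70, and the outer ones were each missed on at least 1 array. Both probes of gsto-3 were above 0, at 0.92 and 1.77, but the second was well above background only on RB1035 replicates 1 and 2 and WTN2 replicate 1, with -6.48, -3.32 and -7.44 in RB1035 and -5.02, -8.67 and -8.85 in WTN2. Its order of arrays differs from that of the brighter gsto-3 probe, on which RB1035 replicate 3 was high. For the 41 genes with a single probe no such comparison was possible.

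**Figure D4:**
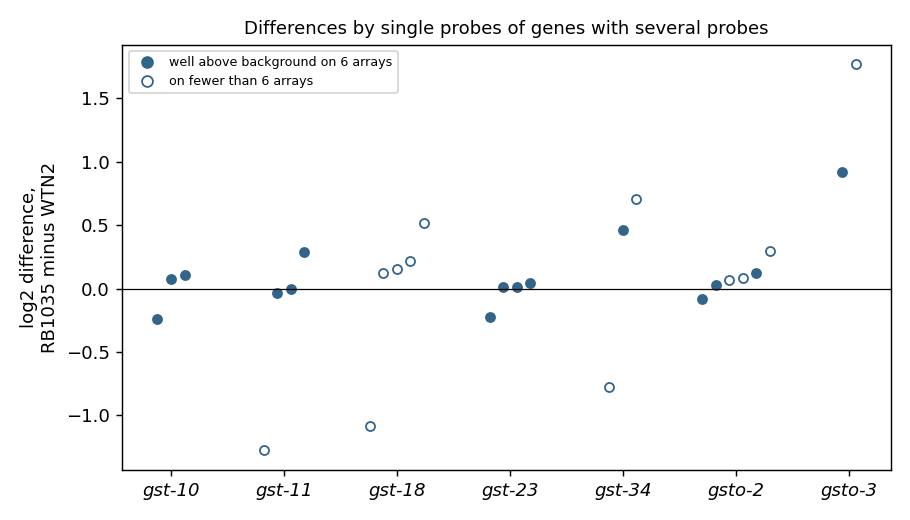
Log2 difference (RB1035 minus WTN2, y axis) by each probe of the 7 transferase genes with several probes; filled points are probes well above background on all 6 arrays and open points probes detected on fewer. Probes detected on all 6 arrays lie between -0.24 and 0.92, and the widest departures from 0 within gst-11, gst-18, gst-34 and gsto-3 are open points.

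Genes around the family were read from the same fit, in 5 lists: glutathione synthesis and recycling, SKN-1 and its regulators, export of conjugates, the thioredoxin system and other proteins with a transferase-like fold. Of 56 genes 53 were tested, and none of them passed (0 of 53 by limma, where 0.101% of all features did). At an unadjusted p under 0.05 there were 4 of 53, where 7.23% of all features were. Among glutathione synthesis and recycling genes, 6 of 16 were above 0 and 10 below, with a median of -0.15 (-0.04 on slide 1 and -0.28 on slide 2). Without RB1035 replicate 1 that median was -0.38, and without RB1035 replicate 3 it was -0.07. The gene gcs-1, which encodes the enzyme of the first step of glutathione synthesis and is a standard SKN-1 target, had 0.61, 1.12 and 0.94 in RB1035 and 0.15, 0.94 and 0.85 in WTN2, a difference of 0.24 (limma adjusted p = 0.785). WTN2 replicate 1 alone was low for gcs-1, and without it the difference was 0.00. The glutathione reductase gene gsr-1 differed by -0.06 (limma adjusted p = 0.938). The smallest p values of the list belonged to the glutathione peroxidase gene gpx-6 (-0.74), the glutaredoxin gene glrx-21 (-0.79) and the peroxidase gene gpx-7 (-0.61), each with a limma adjusted p of 0.65. The arrays of the strains did not overlap for gpx-6, with -2.26, -2.73 and -2.38 in RB1035 and -1.28, -2.21 and -1.64 in WTN2, nor for gpx-7. In this list 4 of 16 genes were lower on all RB1035 arrays and 2 of 16 were higher on all of them, where 6.74% and 5.22% of all features were.

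In the list of SKN-1 and its regulators, 8 of 10 genes were above 0, with a median of 0.29 (0.00 on slide 1 and 0.33 on slide 2), which was 0.17 without WTN2 replicate 3. The transcript of skn-1 itself differed by 0.43 (limma adjusted p = 0.673), that of the kinase gene gsk-3 by 0.53 and that of the kinase gene sgk-1 by 0.42. Single arrays moved each of them: skn-1 gave 0.20 without WTN2 replicate 3, gsk-3 gave 0.21 without RB1035 replicate 2 and 0.24 without WTN2 replicate 3, and sgk-1 gave 0.20 without WTN2 replicate 1 and 0.22 without RB1035 replicate 3. In the deposited series table gsk-3 gave 0.04 and sgk-1 0.20, and with normexp 0.18 and 0.19. By contrast skn-1 gave 0.56 in the deposited series table and 0.54 with normexp. Other single arrays raised the estimates: skn-1 gave 0.59 without WTN2 replicate 1, and without RB1035 replicate 1 gsk-3 gave 0.81 and sgk-1 0.62. For wdr-23, whose product holds SKN-1 in check, the difference was 0.07 (limma adjusted p = 0.934). It was 0.32 with normexp, 0.29 by the mean of its probes and 0.34 in the deposited series table. On slide 1 skn-1 and gsk-3 were below 0, at -0.13 and -0.27.

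The list for export of conjugates held the transporter genes mrp-1 to mrp-8 and hmt-1, and whether each exports glutathione conjugates was not tested. Of its 9 genes, 8 were above 0, with a median of 0.51 (0.08 on slide 1 and 0.57 on slide 2). Without WTN2 replicate 3 the median was 0.25. The transporter gene mrp-7 had -1.54, -1.40 and -0.73 in RB1035 and -2.47, -1.41 and -2.41 in WTN2, a difference of 0.88 ± 0.38 (SE, n = 3 each; limma adjusted p = 0.65). WTN2 replicate 2 lay among the RB1035 arrays for mrp-7. The transporter gene mrp-4 differed by 0.92, though by 0.30 without WTN2 replicate 3, on which it was low, and hmt-1, needed for cadmium tolerance, by 0.51. By the mean of its probes hmt-1 gave 1.18. The thioredoxin system had 8 of 9 genes below 0, with a median of -0.27 and a range from -0.57 to 0.24. Its median was -0.06 with normexp, -0.14 by the mean of each gene's probes and -0.14 in the deposited series table, and without WTN2 replicate 1 it was -0.17. Its genes with the smallest p were trx-4 (-0.57), trx-1 (-0.32, but 0.28 with normexp and 0.09 by the mean of its probes) and the peroxiredoxin gene prdx-6 (-0.29).

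The largest difference in the 5 lists was that of cdr-4, a gene of the cadmium-responsive cdr family, among the other proteins with a transferase-like fold. In that list, which also holds exc-4, exl-1, mtx-1 and mtx-2, 2 of 9 tested genes were above 0 and 7 below, with a median of -0.09, which was 0.05 without WTN2 replicate 1. Of its 5 tested cdr genes 2 were above 0 and 3 below. The signal of cdr-4 was 2.75, 1.11 and 1.59 in RB1035 and 3.21, 3.44 and 3.22 in WTN2, a difference of -1.47 ± 0.42 (SE, n = 3 each; limma adjusted p = 0.65). The signal of cdr-2 was 2.69, 2.20 and 2.47 in RB1035 and 2.96, 3.60 and 3.27 in WTN2, a difference of -0.82 ± 0.29 (SE, n = 3 each; limma adjusted p = 0.65). The strains did not overlap for either gene, and RB1035 replicate 1 was the RB1035 array nearest to WTN2 for both. In this list 2 of 9 genes were thus lower on all RB1035 arrays and 0 of 9 were higher. The same counts held for the thioredoxin system, where 6.74% and 5.22% of all features were lower and higher. On slide 1 cdr-4 gave -0.46 and cdr-2 -0.26, and on slide 2 they gave -1.98 and -1.10. The third gene by p, cdr-6, differed by 0.25, and by -0.15 with normexp.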

How the data were processed

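Per the file headers, the authors extracted spot intensity values with Agilent Feature Extraction 10.7.3.1, and the processed intensity is corrected for spatial background but not between arrays. Deposited log2 values, with array medians of 7.61, are found in the series table; the steps behind them, their scale and centring, are not stated. Per the file headers, RB1035 replicate 2 had no multiplicative surface fitted. The flags for detection and outliers are the authors' deposited ones.

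Signals of the same probe (43803 spots, 43603 probes) were averaged, log2-transformed and reduced by each array's 75th percentile. Probes with an outlier flag (149) were left out, and those detected over background on 3 or more of 6 arrays were kept (31225). Probes were named through a gene table of assembly WBcel235: 30978 by sequence name and 3342 by accession, while 1072 sequence names absent from the table were kept, and 8211 probes stayed unnamed. The brightest probe stood for a gene. limma 3.58.1 in R 4.3.3 (lmFit, eBayes, two-sided) tested 19821 features with Benjamini-Hochberg adjustment at 0.05, and the procedure was tested on simulated data. With 200 changed features simulated, it called 6.0% of 2-fold changes and 79.3% of 4-fold changes, so most 2-fold changes would be missed.

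Members and lists were chosen with earlier results of these data known. Differences are given for the 10 members with the smallest p, for flcn-1, gst-1, gst-4 (no probe matched), gst-7, gst-10, gst-42, gsto-1 and gstk-1, and for the 3 genes with the smallest p in each list with gcs-1, gsr-1, skn-1 and wdr-23; single values of other genes are described as chosen later or stand as parts of a range. The files have no mean spot signal, so normexp (offset 50) used the median columns. Replicate numbers do not pair the samples by the labels.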

Additional observations from a re-analysis of the deposited data

How the results depend on the processing

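In none of the replicated alternatives did a transferase gene pass the threshold by limma. Between 0 and 6 members had an unadjusted p under 0.05, with 6 within slide 2. The share of all features at that level in each alternative is not given here, so whether these counts are high was not tested. Over all features 20 changed, 17 to 20 when any 1 array was left out, and 11 with normexp. When a probe had to be detected on all 6 arrays, 1 of 17421 features changed. The causes of the lower counts in these last 2 settings were not tested. The family median was -0.20 to 0.00 without single arrays. With normexp it was 0.04, where the median of all features was 0.18, so relative to all features it was -0.14, against -0.13 in the main setting. With the replicate block 30 features and 0 members changed. Deviations of same-numbered arrays correlated at 0.12, 0.12 and 0.02, and not every array correlated best with its own number.

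Of 300 comparisons of named members with an alternative, 17 changed sign, 7 of them within slide 1 (where no test is possible), and of 360 for the list genes 15 did, 4 of them within slide 1; the causes were not tested. For gst-10 the difference was -0.0535 with normexp, -0.0208 by the mean of its probes, -0.0132 in the series table and -0.21 to 0.29 without single arrays. For gst-7 it was -0.0345 to 0.28, for gcs-1 -0.0035 to 0.39, for gsr-1 -0.17 to 0.088 and for wdr-23 -0.11 to 0.19 without single arrays. By the mean of its probes gsr-1 gave 0.13 and trx-1 0.0894. With normexp trx-1 gave 0.28 and cdr-6 -0.15, and in the series table cdr-6 gave -0.11. Without RB1035 replicates 2 and 3, chosen after the data were seen, 20 features changed, and the differences were -0.21 for gsto-3, 0.48 for gst-8, 0.35 for gst-22, -0.21 for gst-7, -0.0033 for gst-42, -0.0379 for gsk-3 and -0.0334 for gcs-1. For flcn-1 it was 0.25 within slide 2, -0.84 on slide 1, 0.0346 with array weights and -0.23 to 0.0716 without single arrays.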
